A study of Homo sapiens with 8 samples.

Results

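The authors' deposited table of m6A change lists 4626 features, of which 7 belonged to SAMD9, SAMD9L, ADAR or XAF1, 4 genes of the interferon and double-stranded RNA (dsRNA) response. The members are all rows whose gene name equals one of these symbols, 4 of the 3114 gene names in the table: SAMD9 held 3 features, SAMD9L held 2, and ADAR and XAF1 held 1 each. The material was HL-60, an established human promyelocytic leukaemia cell line, labelled wild type in every group. One arm received decitabine in 3 doses of 100 nM, given at the start and after 24 and 48 hours, and the other its vehicle DMSO, and RNA from both was taken at 72 hours. N6-methyladenosine (m6A) was measured by MeRIP-seq, in which an antibody pulls methylated fragments out of 2 µg of RNA and the pulled-down (m6A) library is read beside an input library. There are 8 libraries, with 2 of m6A and 2 of input for each treatment, and the labels number them as replicates without saying more of their source.

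Cells read long dsRNA as a sign of virus infection: sensor proteins bind it and switch on type I interferon, and interferon then induces a large set of antiviral genes. Decitabine, a deoxycytidine analogue that traps DNA methyltransferases, can release silenced repeat elements whose transcripts form dsRNA, a response known as viral mimicry. SAMD9 and SAMD9L are neighbouring, interferon-induced genes for proteins that restrict viruses and translation, in a part of chromosome 7 that is often lost in myeloid disease. XAF1 is an interferon-induced promoter of apoptosis that binds the caspase inhibitor XIAP. ADAR converts adenosine to inosine in dsRNA, which keeps the cell's own RNA from triggering the sensors, and one of its isoforms is itself interferon-induced.

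Each value below is the authors' single log ratio between the arms, over the libraries as they combined them. The table holds no value per library, so no ratio has an error or a replicate spread here, the depth behind it is unknown, and no difference between members could be tested. The ratio was read as a natural log (ln), and is also given as a fold of the larger over the smaller arm. Which arm is on top is not stated, though the name of the table makes it likely that a positive sign means decitabine above DMSO. No source used here gives the correction for input, so a change in m6A and a change in the amount of RNA cannot be told apart. Only features with an absolute ln ratio of at least 0.501 and a p-value of at most 0.00455 were listed, and that p is not marked as adjusted. A gene or site outside the table is therefore not shown to be stable, and the table has no levels against which HL-60 markers could be checked.

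The 4 genes were grouped for their link to interferon, so the DNA before their starts was read for the letters that interferon-regulatory factors bind. Windows of 300 bases (250 before and 50 after an annotated transcript start, RefSeq, GRCh38.p14) were searched on both strands for GAAANNGAA, the core of the interferon-stimulated response element, and for the shorter AANNGAAA, which overlaps it. The table of windows holds 1 window for SAMD9, 1 for SAMD9L, 2 for XAF1 and 3 for ADAR. GAAANNGAA occurred in 8.11% of all 35116 windows, and among the members in the SAMD9 window, at -136 (bases before the transcript start carry a minus sign). AANNGAAA occurred in 22.8% of all windows, in the windows of SAMD9 and SAMD9L and in both of XAF1, and was not found in the 3 ADAR windows. Whether any ADAR window covers the start of the interferon-induced isoform was not looked at. SAMD9, SAMD9L and XAF1 each held AANNGAAA with the same letters, AACTGAAA, at -134, -46 and -31 (the last on the opposite strand). These letters were picked out after the matches were seen, and their share over all windows was not counted. The stretches around these 3 shared matches are printed 5′ to 3′ on the gene's strand, with every match to either motif in capitals.
SAMD9, chr7:93118083-93118142, minus strand: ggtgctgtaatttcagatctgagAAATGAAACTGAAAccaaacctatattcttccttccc
SAMD9L, chr7:93148398-93148457, minus strand: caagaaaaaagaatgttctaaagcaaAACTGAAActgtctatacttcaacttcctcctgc
XAF1, chr17:6756005-6756070, plus strand: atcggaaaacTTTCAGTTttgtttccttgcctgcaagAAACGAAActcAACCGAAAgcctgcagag
A match describes the letters and is not a measured binding site. CpG dinucleotides, the sites of the DNA methylation that decitabine removes, were also counted in these windows: 4 in SAMD9, 0 in SAMD9L and 7 and 3 in the XAF1 windows, against 14, 14 and 13 in those of ADAR and a median of 14 over all windows (quartiles 4 and 28).

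SAMD9L carried large positive ratios at both of its listed positions. Per the authors' deposited table the feature nearer the 5′ end (ENSG00000177409.12, hg38 chromosome 7, 93135756 to 93135805, minus strand) had an ln ratio of 5.44, a 230-fold difference between the arms (p = 1.1e-07). The other SAMD9L feature per the authors' deposited table (93133156 to 93133205) had an ln ratio of 4.67, or 107-fold (p = 0.0027). Both lay in the later part of the gene span, 12580 and 15180 nt from its 5′ end, 2600 nt apart. Of the 2604 positive features in the table, 177 were at least as large as the first and 607 at least as large as the second. The deposited p-values of the pair differ far more than their ratios do, which are 2.15 times apart: the first ranked 154 and the second 3709 among all 4626 features by p. Both ratios are whole numbers. Ratios that are multiples of 0.5, to a relative tolerance of 1e-08, are called stepped here. They made up 1358 of the 1561 features of 20-fold or more. From 100-fold upward, 772 out of 795 were stepped. The source of the steps was not tested, and the table gives no level for either arm. A stepped fold is therefore reported as deposited and may not measure the size of a change.

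The second SAMD9L value also recurred elsewhere. Per the authors' deposited table, features of CAMK1, ZCCHC2 and ZNF468 had the same ratio and the same p-value as the 107-fold SAMD9L feature, to a tolerance of 1e-06. No other feature shared both values with the 230-fold SAMD9L feature or with any of the other 5 member features. Among the 234 positive features within 1.2 times of 107-fold, 177 had a smaller and 53 a larger p than the SAMD9L feature, and the median p was 0.00087. The 230-fold feature lay on the other side of its neighbours in size, with 32 smaller and 94 larger p-values among 127 features.

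SAMD9, the neighbour of SAMD9L, had features of both signs. The authors' deposited table listed, from the 5′ to the 3′ end of the gene (ENSG00000205413.8, chromosome 7, minus strand), a positive feature with an ln ratio of 0.82 (2.28-fold, 93105523 to 93105572, p = 0.0024). Next per the authors' deposited table came a negative feature at -0.95 (2.58-fold, 93103983 to 93104032, p = 0.00017). Nearest the 3′ end, the authors' deposited table gave a negative feature at -5.42 (226-fold, 93100655 to 93100704, p = 0.00017). The signs thus changed within 1540 nt, between neighbouring listed positions, and the last feature lay a further 3328 nt downstream. Only 67 of the 2022 negative features were at least as large as the last of these, whereas 1452 were at least as large as the second and 2277 of the positive features at least as large as the first. The 226-fold ratio is a whole number once multiplied by 3 (to the tolerance above) and is the only member ratio of 10-fold or more that is not stepped. Where that multiple comes from was not tested, so the caution given for stepped folds applies to its size too.

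SAMD9 and SAMD9L sit side by side on the minus strand, with spans of 18462 and 18330 nt and 12076 nt between them. For both genes the nearest listed feature of another gene was one of the neighbour's, 27584 nt or more away. At similar distances from the 5′ end, 12407 nt in SAMD9 and 12580 nt in SAMD9L, both genes had a positive feature per the authors' deposited table, of 2.28-fold and 230-fold. These distances are genomic, and positions were not aligned between the genes. Further downstream the signs were opposite: the later feature of SAMD9L, at 15180 nt, was positive, and those of SAMD9, at 13947 and 17275 nt, were negative. The genes are paralogues, and no source used here says how 50-base reads that align to both were assigned. The size of the difference between the neighbours could not be tested.

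**Figure D1:**
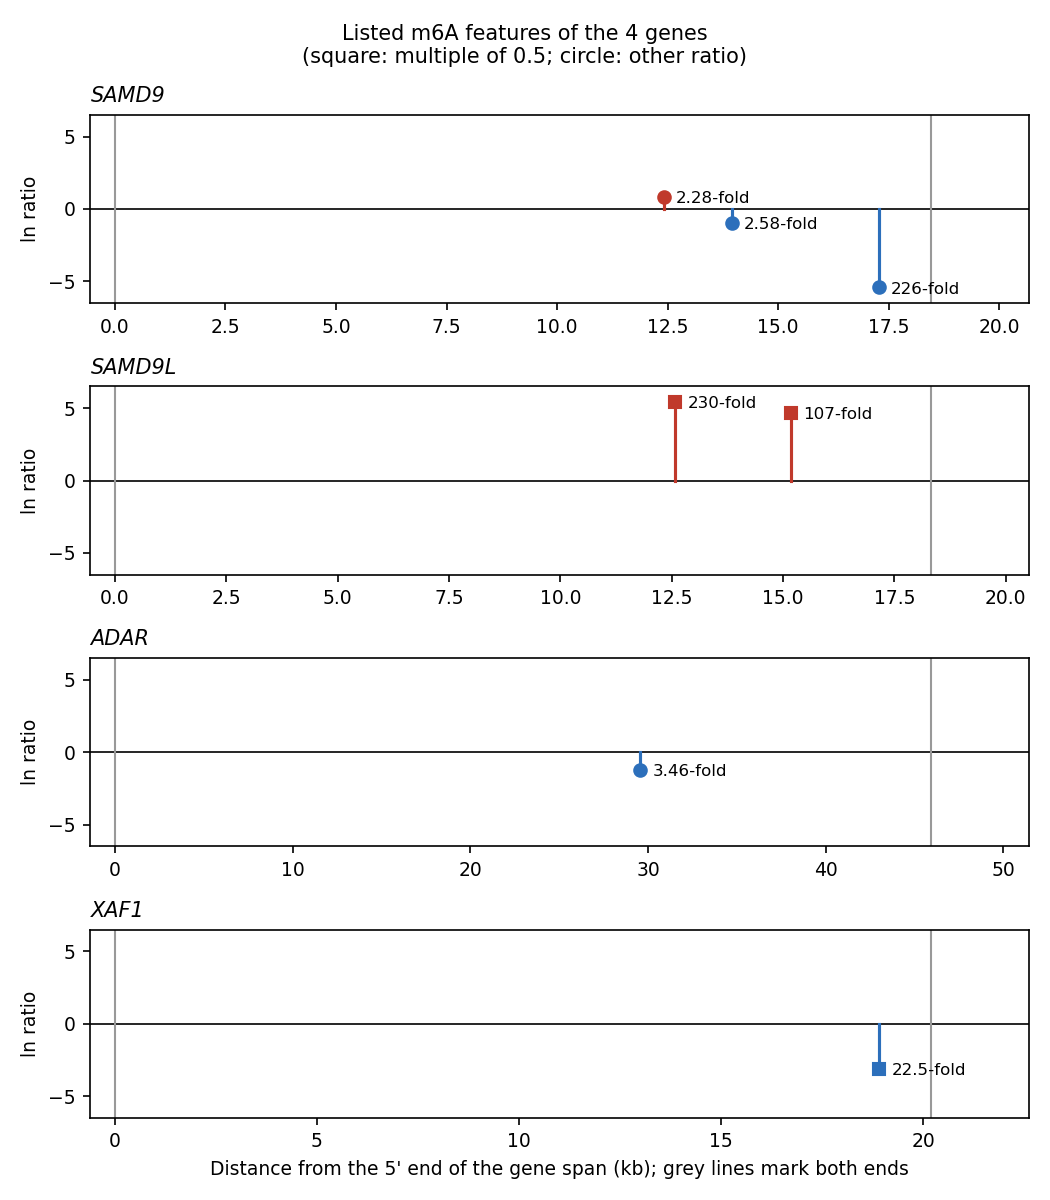
Natural log ratio of each listed feature (vertical axis) against its distance in kb from the 5′ end of the gene span (horizontal axis, a separate scale for each gene), with the fold printed beside it. Red is positive, blue negative, and squares are ratios that are multiples of 0.5; SAMD9L has 2 positive features of 230-fold and 107-fold, while SAMD9 goes from a positive 2.28-fold feature to a negative 226-fold feature near its 3′ end.

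XAF1 had a single, negative feature near the 3′ end of its span. The authors' deposited table placed it (ENSG00000132530.17, chromosome 17, 6774355 to 6774404, plus strand) at an ln ratio of -3.11, a stepped 22.5-fold difference (p = 0.0007). It lay 1243 nt before the end of the span, and 335 of the 2022 negative features were at least as large. RefSeq places a long non-coding RNA gene on the opposite strand, LOC124903905 (chromosome 17, 6771011 to 6776110), over the same position. No source used here says whether the authors' counting used strand, so reads of XAF1 and of that RNA may not have been separated. Among the 7 features this was the only one with a second annotated gene over it.

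ADAR, the dsRNA editor, had the most modest ratio among the leading features of the 4 genes. Per the authors' deposited table its one feature (ENSG00000160710.17, chromosome 1, 154597969 to 154598443, minus strand) had an ln ratio of -1.24, or 3.46-fold, and p = 0.00054. This ratio is not stepped, and 1157 of the 2022 negative features were at least as large. It was the only member feature in 2 blocks, of 42 nt (154598402 to 154598443) and 8 nt (154597969 to 154597976), with 425 nt skipped between them. Features in several blocks made up 4.19% of the table (194). The feature lay 29554 nt from the 5′ end of the ADAR span, which is 45941 nt long. The nearest listed feature of another gene, IL6R, was 132738 nt away.

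The 7 features divided into 3 positive and 4 negative, and 3 of the 4 genes were led by a negative feature, taking as leading the feature of smallest p. Over all genes listed, 56.3% of features and 58.9% of leading features were positive. With so few members these shares are a description of the 4 genes and show no difference from the rest. Without stepped ratios, 1 positive and 3 negative member features were left, and 45.3% of all features were positive. Ratios of 10-fold or more were 4 of the 7, against 38.5% of all features, and the median absolute ln ratio of the members was 3.11, against 1.64 in the whole table. Without stepped ratios the order turned round, with a median of 1.09 for the members and 1.23 for all features. Stepped ratios were 3 of the 7, against 30.6% of all features. Both features of SAMD9L were positive, as in 32.9% of the 607 genes with 2 features, and SAMD9 had both signs, as did 76.5% of the 213 genes with 3 features. Neither pattern is uncommon in the table. Distances to the 3′ end of each gene ran from 1137 nt in SAMD9 to 15912 nt in ADAR, and the median over the 4240 features inside their gene's span was 4022 nt (quartiles 1548 and 15759).

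**Figure D2:**
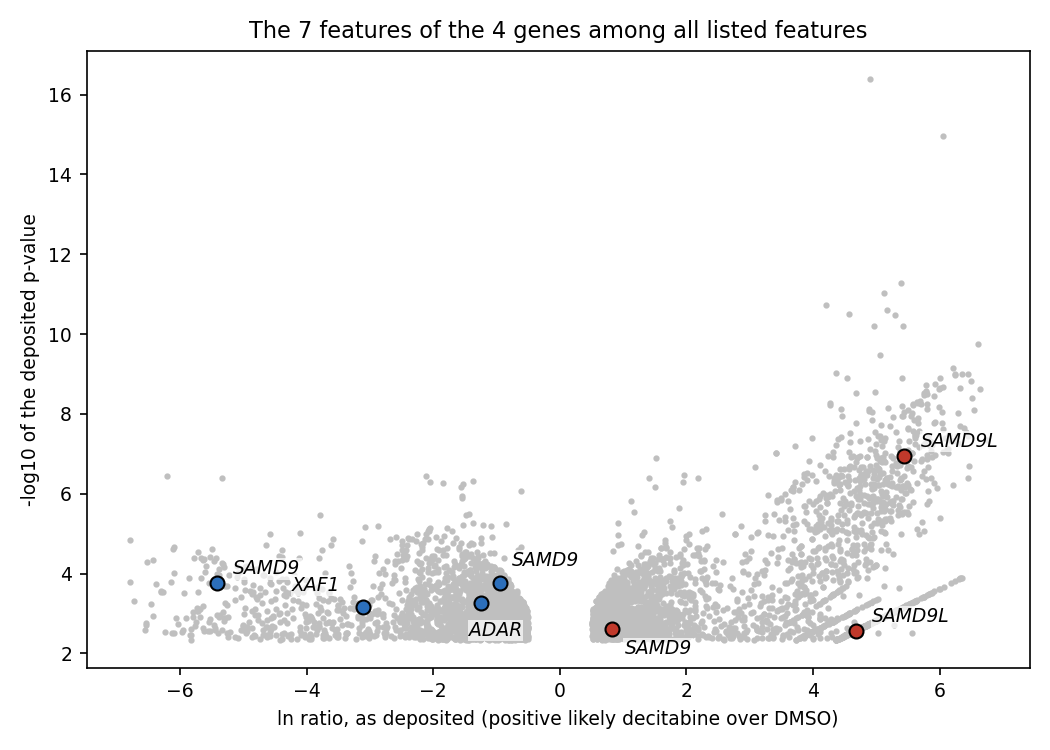
Negative log10 of the deposited p-value (vertical axis) against the natural log ratio (horizontal axis) for the listed features (grey; 1 feature with an ln ratio above 10 is not drawn) and for the 7 features of the 4 genes (red positive, blue negative). The 230-fold SAMD9L feature lies within the cloud of small p-values on the right, while its 107-fold feature lies low, by a line of grey points along which p follows the ratio.

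The other genes of the pathway were also of both signs. Of 144 genes in 5 lists by role (chosen with earlier results known), 26 had a listed feature. How many genes could have been listed is not known, so this count and those by role below have no share over all genes beside them. Of the 26 genes, 13 were led by a positive and 13 by a negative feature. The median leading ln ratio was 0.11, against 0.93 over all 3114 genes. Without stepped ratios the counts were 6 and 13, while 45.3% of all features were positive. The share of leading features over all genes was not counted in that setting. Without the 4 members the counts were 12 and 10 of 140 genes, with a median leading ln ratio of 0.90. Of the 12 interferon ligands and receptors, 2 were listed: per the authors' deposited table IFNAR1, a chain of the type I interferon receptor, was at a positive 78.5-fold (stepped, p = 9.2e-10), and IFNGR2, a chain of the interferon gamma receptor, at a negative 1.97-fold. Of 16 signalling genes 3 were listed, with the kinases JAK1 at a positive 2.18-fold and JAK2 at a negative 4.88-fold and the transcription factor IRF2 at a negative 1.84-fold per the authors' deposited table.

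Of 20 sensors and adaptors, 5 were listed, 2 positive and 3 negative. The authors' deposited table gave MAVS, the adaptor of the cytoplasmic dsRNA sensors, a negative 1.74-fold feature (p = 0.0024), and TICAM1, the adaptor of the endosomal dsRNA receptor, a positive stepped 173-fold feature (p = 0.0011). The ubiquitin ligases TRAF3 and TRAF6, which relay these signals, stood at a positive 98.5-fold (stepped) and a negative 1.73-fold per the authors' deposited table, and the DNA receptor TLR9 at a negative 5.44-fold. The interval of TREX1, and nearly that of TLR9, were also listed under overlapping genes, with other ratios. The TLR9 span also held a positive 215-fold feature under AC097637.1 per the authors' deposited table. The dsRNA sensors RIGI and IFIH1 were not among the listed genes. Of 18 dsRNA effectors and limiters 4 were listed, and ADAR was the only one of them led by a negative feature, joined by DICER1 when the largest change represents a gene or stepped ratios are left out. Per the authors' deposited table the others included the DNA exonuclease TREX1 (positive 97.5-fold, stepped) and the helicase-like ZNFX1 (positive 427-fold and 268-fold, both stepped). Without stepped ratios TREX1 and ZNFX1 had no feature left. Only ADAR and DICER1 then remained in this role, each led by a negative feature. DICER1, which cuts dsRNA, had features at a positive 185-fold (stepped), a negative 348-fold and a negative 1.93-fold per the authors' deposited table. The 348-fold ratio is whole once multiplied by 3.

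Of 79 interferon-induced effectors 12 were listed, SAMD9, SAMD9L and XAF1 among them, of which 6 were led by a positive and 6 by a negative feature. NLRC5, an activator of MHC class I genes, held the most features of any gene in the lists. Per the authors' deposited table it had positive features of 3.61-fold, 17.7-fold, 14.4-fold and 111-fold (stepped) and a negative one of 2.98-fold. The 17.7-fold ratio is whole once multiplied by 3. The antiviral ZC3HAV1, which binds CpG-rich RNA, was at a negative 3.23-fold (p = 0.00019), and the ADP-ribosyltransferase PARP14 at a positive 3.29-fold, per the authors' deposited table. DTX3L, a ubiquitin ligase, and N4BP1, a ribonuclease, were each led by a positive feature, of 2.75-fold and 11.9-fold, beside a negative one of 1.84-fold and 2.25-fold, per the authors' deposited table. TRIM14 (negative 3.76-fold), TRIM21 (negative 2.14-fold), CNP (negative 1.97-fold and 8.99-fold) and TDRD7 (positive 81.7-fold) completed the group per the authors' deposited table. The TDRD7 ratio is also whole once multiplied by 3. Well known members of the interferon signature, among them ISG15, MX1, the IFIT genes and the OAS genes, were not listed. Of the 8 genes of all lists with several features, 5 had both signs, SAMD9 among them, 2 (SAMD9L and ZNFX1) only positive and 1 (CNP) only negative ones. Both signs were also common in the whole table, in 76.5% of the 213 genes with 3 features. The share over all genes with several features was not counted.

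**Figure D3:**
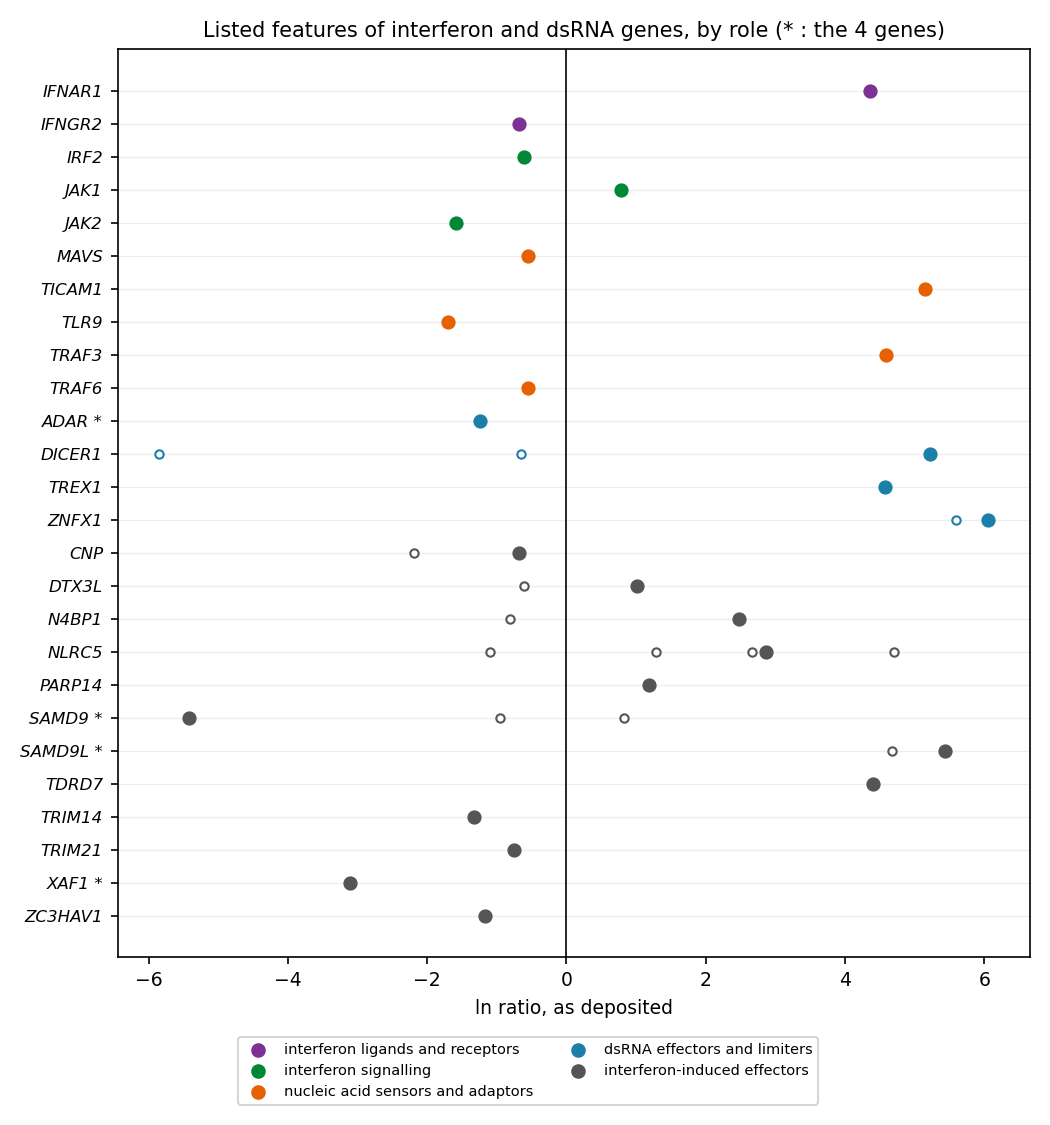
Natural log ratio (horizontal axis) of every listed feature of the 26 genes, in 1 row per gene and coloured by role, with large filled points for the leading feature and small open points for the others. The 4 genes are marked with an asterisk, and leading features lie on both sides of 0: 13 positive and 13 negative.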

How the data were processed

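Only the authors' deposited table of the comparison of decitabine with DMSO was used: natural log (ln) ratios and p-values per feature, with position and gene name, per the file headers. The submitters' processing notes name STAR 2.7.3a and hg38; no source used here names the feature caller. The log base is not in the header. It was read as natural because the exponential was a multiple of 0.5 for 1415 features, against 0 when read as log2. Coordinates were taken as 1-based and inclusive. Gene spans, strands and promoter windows came from RefSeq tables of GRCh38.p14. The 10 chromosome Y features were left out of counts by gene. Sequence was used for the promoter windows alone, and features were not annotated to exons or searched for motifs.

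The 4 members and the gene lists (144 genes, older symbols brought to RefSeq symbols) were chosen with earlier results of these data known. The genes named are the members and each list gene with a listed feature, except that RIGI, IFIH1, ISG15, MX1 and the IFIT and OAS genes were singled out after their absence was seen, as were the 3 genes that share values with SAMD9L. Some genes of the lists are not reported here and are left out of the counts by list. No test was run, since no value per library was used. Python 3.11.15, pandas 2.3.3, numpy 2.4.6 and matplotlib 3.10.9 were used, and the scripts for stepped ratios and motifs were tested on simulated data.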

Additional observations from a re-analysis of the deposited data

How the results depend on the processing

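Matching features to genes by span and strand in place of name, and leaving out chromosome Y, kept the 7 member features, 3 of them positive. Span matching listed 23 of the list genes, but 116 of 144 had both a span and a strand. Without stepped ratios 4 member features remained, 1 of them positive, with a median absolute ln ratio of 1.09, and SAMD9L and XAF1 had none. With ratios that are whole once multiplied by 3 also left out, an alternative chosen after seeing the data, 3 remained, 1 positive, with a median of 0.95. In those settings the lists had 6 positive and 13 negative, and 4 positive and 14 negative, leading features. Of all features 45.3% and 45.2% were positive there. The share of leading features over all genes was not counted in these settings or at the stricter p that follows. At a deposited p of 0.001 or less, 5 member features remained, 1 of them positive, while 60.6% of all features were positive. At that cut 15 list genes remained, 8 led by a positive and 7 by a negative feature. Read as log2, the median was 2.16 on the ln scale. With the largest change in place of the smallest p, the leading ln ratio of DICER1 went from 5.22 to -5.85. It was also -5.85 without stepped ratios. With the multiples of 1/3 also left out, that of DICER1 was -0.66 and that of NLRC5 -1.09. In that setting the leading ln ratio of the member SAMD9 went from -5.42 to -0.95. No paired analysis was possible because the table holds no value per library, and for the same reason no replicate could be left out.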

Other observations

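The 107-fold SAMD9L feature belongs to a wider pattern per the authors' deposited table. Outside chromosome Y, 285 of 4616 features (6.17%) had exactly the ratio and p-value of a feature of another gene, to a tolerance of 1e-06. They made up 19.9% of the stepped features (281 of 1415) and 0.125% of the others (4 of 3201). Among positive features of 100-fold or more, 128 of the 159 with a p above 0.001 shared both values with another gene (80.5%), against 30 of the 482 with a p of 0.001 or less (6.22%). The 107-fold SAMD9L feature is in the first of these classes and the 230-fold feature in the second. What the shared values come from was not tested, since no value per library was used.

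The same interval could carry different ratios under different gene names, though this was rare. Outside chromosome Y, 2 intervals were listed under several names, each with different ratios of the same sign. The folds were at most 1.08 times apart. The interval of TREX1 (chromosome 3, 48467197 to 48467246) was also listed under ATRIP, at a positive 90.0-fold in place of 97.5-fold, per the authors' deposited table. That of TLR9, a negative 5.44-fold feature, was listed 1 base away under AC097637.1 at a negative 2.93-fold per the authors' deposited table. A second AC097637.1 feature inside the TLR9 span (52222958 to 52223007) was at a positive 215-fold (p = 2.1e-06) per the authors' deposited table. None of the intervals of SAMD9, SAMD9L, ADAR or XAF1 was listed under a second name.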
